A study of Mus musculus with 13 samples.

Results

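The 10 genes described here serve the everyday functions of mature astrocytes: glutamate uptake and its conversion to glutamine (Slc1a2, Slc1a3, Glul), water and potassium handling (Aqp4, Kcnj10), gap junctions (Gja1, Gjb6), the widely used astrocyte markers Aldh1l1 and S100b, and the transcription factor Sox9. They were taken from a written list of genes of mature astrocyte function, chosen with earlier results of these data known. They are 10 of the 48795 genes in the deposited table. All 10 were found there and all 10 passed the filter on low counts in every comparison.

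RNA was sequenced from the right brain hemisphere, without olfactory bulb and cerebellum, of 13 mice at postnatal day 11. Control mice (n = 5) had the genotype NexCre -/- YAP5SAnls +/-, so they carried the transgene for a nuclear, activated YAP1 but no Cre. nlsYAP5SA mice (n = 5) had the genotype NexCre +/- YAP5SAnls +/-, in which Cre switches the transgene on. C57BL/6 mice (n = 3) were wild type, of the same age, and not littermates of the others. All 3 groups had the strain background C57BL/6J. Cre was driven from the NEX (NeuroD6) locus, which is active in precursors of pyramidal neurons and in those neurons, and the libraries of whole tissue do not separate recombined cells from others. Controls and nlsYAP5SA mice were littermates from 2 matings, and the labels do not say which mouse came from which litter.

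Astrocytes clear glutamate from synapses through the transporters encoded by Slc1a2 and Slc1a3, and glutamine synthetase, encoded by Glul, turns it into glutamine that returns to neurons. Their processes around vessels hold the water channel Aqp4 and the inwardly rectifying potassium channel Kcnj10, which buffers potassium released by active neurons, and connexins encoded by Gja1 and Gjb6 join neighbouring astrocytes into a network. Many of these genes are still rising in the mouse forebrain in the weeks after birth, and several of them are also known in other glia, S100b and Kcnj10 in the oligodendrocyte lineage among them.

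Estimated counts per sample summed to between 21380744 and 25524349 in controls (median 24211508), between 20871566 and 23586887 in nlsYAP5SA mice (median 21851691) and between 21541836 and 24392197 in C57BL/6 mice (median 22788250), so depth overlapped between the groups. Over the 13 samples the members held between 8131 estimated counts (Gjb6) and 901042 (Slc1a2). Replicates of a group differed beyond sampling noise in each of 23 pairs (lowest chi-square per degree of freedom 6.67 over 15105 genes). Levels are given as CPM, counts scaled to 1e6 per library with TMM factors. The tissue label fitted its markers, since neuronal, oligodendrocyte and astrocyte transcripts were abundant in every library: 8 neuronal markers summed to between 4634 and 5325 CPM, 10 myelin genes to between 1398 and 4872 CPM and the 10 members to between 3696 and 7376 CPM.

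The labels do not give the sex of the mice, and the groups were unequal in it by their transcripts. The summed level of 4 Y-linked genes (Ddx3y, Eif2s3y, Kdm5d, Uty) was between 91.0 and 143 CPM in 9 samples, namely all 5 controls, nlsYAP5SA replicates 3 and 4, and C57BL/6 replicates 1 and 3. It was at most 0.0942 CPM in the other 4, nlsYAP5SA replicates 1, 2 and 5 and C57BL/6 replicate 2, in which Xist was between 270 and 578 CPM. Genotype and sex were therefore partly confounded, and the counts of members called are also given for the samples with Y-linked transcripts, a choice made after these levels were seen. Ttr, a transcript of the choroid plexus, varied between 0.783 and 276 CPM and was high or low within every group.

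Per kilobase of exon, the scale on which levels of different genes can be compared, Glul and Slc1a2 led in the controls with means of 221 ± 20.8 and 213 ± 66.4 CPM per kb (SD, n = 5). Their ranges overlapped (193 to 239.9 and 130.3 to 294), so the order of these leading genes was within their spread. Slc1a3 followed at 72.0 ± 7.89 CPM per kb, clear of its neighbours on either side. Aqp4 (50.3 ± 7.56) and Kcnj10 (45.7 ± 6.80) were close, with overlapping ranges in the controls, and Kcnj10 also overlapped with S100b (35.7 ± 3.32). Gja1 stood at 23.4 ± 2.52 and Aldh1l1 at 14.7 ± 0.550 CPM per kb, and the lowest levels were those of Gjb6 (8.10 ± 1.01) and Sox9 (6.94 ± 0.689), which overlapped. In nlsYAP5SA mice Glul (305 ± 58.2 CPM per kb) and Slc1a2 (247 ± 53.4) again led, while Gja1 (30.1 ± 3.48) and Kcnj10 (32.5 ± 3.17) came close together. Levels depended on the length used: with the longest annotated transcript in place of the union of exons, Gja1 rose from place 7 to place 5 in the controls, at 61.7 CPM per kb, and Slc1a3 kept its place at 139 CPM per kb.

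**Figure D1:**
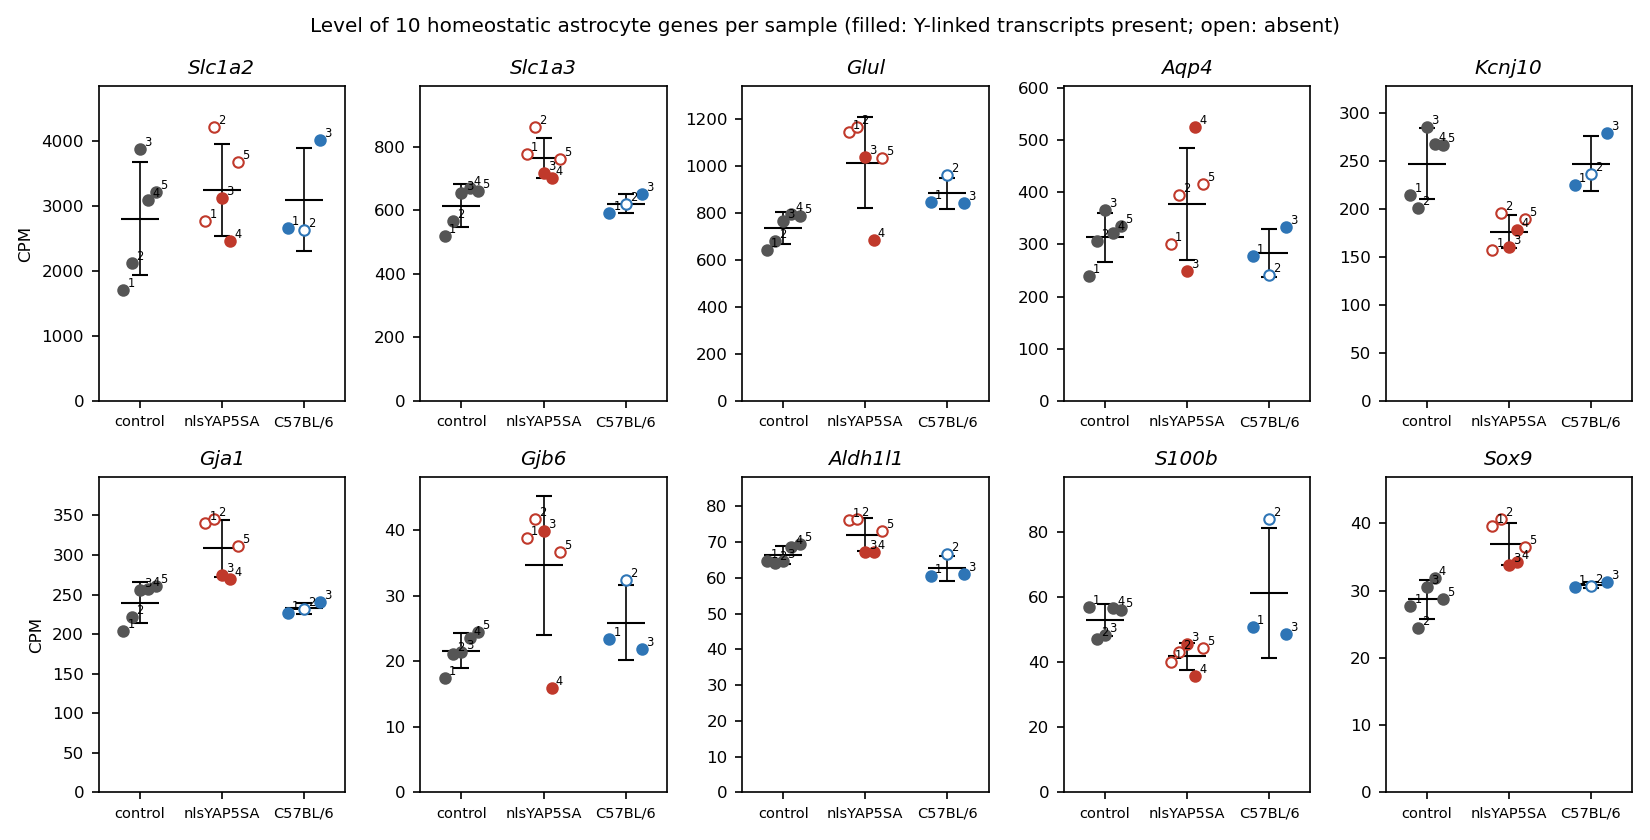
Level of each of the 10 genes (y axis, CPM, each panel from 0) in every sample of the 3 groups (x axis); points are samples with their replicate numbers, filled where Y-linked transcripts were present and open where they were absent, and lines are means ± SD (n = 5, 5 and 3). The 5 nlsYAP5SA samples lie above all controls for Slc1a3, Gja1 and Sox9 and below them for Kcnj10 and S100b, and nlsYAP5SA replicate 4 stands apart at 684 CPM for Glul and 16.0 CPM for Gjb6.

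The comparison of nlsYAP5SA with control mice shows what a transgene active in the pyramidal lineage went with in these transcripts of the same hemisphere. The members did not move as a block: Slc1a3, Glul, Gja1 and Sox9 were higher and Kcnj10 and S100b lower, each by less than 1.5-fold. edgeR's quasi-likelihood test called 4 of 10 members higher, against 7.36% of the 16315 genes tested, and 2 of 10 lower, against 3.44% of them, with p adjusted by Benjamini-Hochberg and a limit of 0.05. The members and the lists below were chosen with earlier results of these data known, so such counts describe them and do not test them as a set. The median log2 fold change of the members was 0.29 and that of all genes -0.01. Every nlsYAP5SA sample lay above every control for 3 members, against 6.50% of genes, and below every control for 2 members, against 3.57% of genes. The paper reports multiple tumours along the lateral ventricles of nlsYAP5SA mice and an altered hippocampus. In such tissue, fewer or more astrocytes, less or more RNA per astrocyte, and RNA of other cells, tumour cells among them, cannot be told apart. This holds here and for every result below. The calls also depended on the samples with Y-linked transcripts, as given after the single genes.

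Slc1a3 (ENSMUSG00000005360, chr15:8634124-8710764, minus strand) encodes the glutamate transporter that dominates in young astrocytes. Its level was 519, 567, 655, 671 and 660.2 CPM in control replicates 1 to 5 and 776, 862, 718, 700.3 and 763 CPM in nlsYAP5SA replicates 1 to 5. The highest control stayed under the lowest nlsYAP5SA sample, and the 3 nlsYAP5SA samples without Y-linked transcripts were the 3 highest of all 13. The log2 fold change was 0.31 ± 0.08 (SE; adjusted p 0.0231, edgeR). Slc1a2 (ENSMUSG00000005089, chr2:102658659-102790784, plus strand), the main glutamate transporter of the adult forebrain, measured 1711, 2120.1, 3866, 3089.7 and 3215 CPM in the controls and 2769.9, 4210.2, 3112, 2461 and 3669 CPM in nlsYAP5SA mice. The groups overlapped almost wholly, since 1 nlsYAP5SA sample exceeded the highest control, and control replicates 1 and 2 were the lowest samples. It was not called (log2 fold change 0.21 ± 0.20, adjusted p 0.567, edgeR; 0.08 to 0.35 leaving out single samples).

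Glul (ENSMUSG00000026473, chr1:153899944-153909723, plus strand) was at 641, 682, 765, 797 and 788 CPM in the controls and at 1145, 1165, 1036, 684 and 1033 CPM in nlsYAP5SA mice. Replicates 1, 2, 3 and 5 of the mutants lay well above all controls, and replicate 4 lay among the lowest controls. Its log2 fold change was 0.46 ± 0.12 (adjusted p 0.0305, edgeR), and without replicate 4 it was 0.57 with the lowest adjusted p of any omission, 0.000408. The log2 ratio of Slc1a2 to Slc1a3 within a sample was 2.13 ± 0.33 in controls (SD, n = 5) and 2.06 ± 0.23 in nlsYAP5SA mice (n = 5), a difference of -0.07 (two-sided exact permutation p 0.730, adjusted 0.821 over 9 such tests). The ratio therefore moved by less than its spread between replicates, though Slc1a3 itself was called and Slc1a2 was not.

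Kcnj10 (ENSMUSG00000044708, chr1:172341210-172374085, plus strand) was at 214, 201, 285, 268 and 266 CPM in control replicates 1 to 5. In nlsYAP5SA replicates 1 to 5 it was at 157, 196, 160.4, 178 and 189 CPM. All 5 nlsYAP5SA samples were below all controls, the gap between the closest samples was small, and the samples with Y-linked transcripts (160.4 and 178) lay within the range of those without. Its log2 fold change of -0.49 ± 0.10 (adjusted p 0.00720, edgeR) was the largest decrease among the members. Aqp4 (ENSMUSG00000024411), the water channel of astrocyte endfeet, did not follow it. Its level was 239, 306, 365, 321 and 336 CPM in the controls and 302, 395, 250.1, 525 and 416 CPM in nlsYAP5SA mice. Here the mutants spread more widely than the controls, with replicate 4 the highest and replicate 3 near the lowest of all 13 samples, and Aqp4 was not called (log2 fold change 0.27 ± 0.17, adjusted p 0.373, edgeR; 0.12 to 0.38 leaving out single samples, lowest without replicate 4).

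The ratio of these channels was compared within samples. The log2 ratio of Kcnj10 to Aqp4 was -0.16, -0.60, -0.36, -0.26 and -0.34 in control replicates 1 to 5 and -0.95, -1.02, -0.64, -1.56 and -1.14 in nlsYAP5SA replicates 1 to 5. Every nlsYAP5SA sample was below every control, with control replicate 2 and nlsYAP5SA replicate 3 closest to each other. The means were -0.34 ± 0.17 and -1.06 ± 0.33 (SD, n = 5 and 5), a difference of -0.72 with a two-sided exact permutation p of 0.00794, the smallest that the 252 divisions of 10 samples can give. Adjusted over the 9 ratio tests this was 0.0714, so the difference did not pass the correction. Without nlsYAP5SA replicate 4 the difference was smaller, -0.59, yet passed (adjusted exact two-sided permutation p 0.0357), because the ratio of Gjb6 to Gja1 reached the same smallest p in that omission and eased the correction. Other omissions gave adjusted p up to 0.0804, and in samples with Y-linked transcripts the difference was -0.76, where 2 against 5 samples cannot pass for a single ratio.

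Gja1 (ENSMUSG00000050953, chr10:56377330-56402513, plus strand) encodes the main astrocyte connexin. It was measured at 204, 222, 256, 257 and 261 CPM in the controls and 340.4, 346, 275, 269 and 311 CPM in nlsYAP5SA mice. No nlsYAP5SA sample reached down to a control, and replicates 3 and 4, those with Y-linked transcripts, were the nearest to them. The log2 fold change was 0.36 ± 0.09 (adjusted p 0.0207, edgeR). Gjb6 (ENSMUSG00000040055, chr14:57123303-57133611, minus strand), a connexin that appears later in astrocyte maturation, was at 17.5, 21.2, 21.5, 23.6 and 24.5 CPM in the controls and 38.9, 41.8, 39.9, 16.0 and 36.7 CPM in nlsYAP5SA mice. Replicates 1, 2, 3 and 5 lay far above the controls, whereas replicate 4 lay below all of them.

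With that spread the log2 fold change of Gjb6, 0.68 ± 0.21, was the largest of the 10 and missed the threshold (adjusted p 0.0559, edgeR). Without replicate 4 it was 0.86 with an adjusted p of 9.94e-05 in edgeR, and leaving out other samples gave up to 0.137. Over all samples edgeR also called Gjb6 higher with no filter, with at least 10 counts in every sample and with the robust GC and length offset. The log2 ratio of Gjb6 to Gja1 was -3.54, -3.39, -3.57, -3.45 and -3.42 in the controls, a narrow range. In nlsYAP5SA mice it was -3.13, -3.05, -2.78, -4.07 and -3.08, so 4 samples were above all controls and replicate 4 below all of them. The means of -3.47 ± 0.08 and -3.22 ± 0.49 (SD, n = 5 and 5) differed by 0.25 (two-sided exact permutation p 0.317, adjusted 0.476). Without replicate 4 they differed by 0.46, which passed (adjusted exact two-sided permutation p 0.0357), other omissions gave adjusted p up to 0.743, and in samples with Y-linked transcripts the difference was 0.0432.

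Aldh1l1 (ENSMUSG00000030088, chr6:90486427-90600203, plus strand) encodes a folate enzyme used as a marker of astrocytes in general. The controls lay between 64.2 and 69.5 CPM, and nlsYAP5SA replicates 1 to 5 were at 76.1, 76.6, 67.2, 67.2 and 73.2 CPM. Replicates 1, 2 and 5, without Y-linked transcripts, were above all controls, and replicates 3 and 4 were within the control range. This marker was not called (log2 fold change 0.12 ± 0.05, adjusted p 0.193, edgeR). S100b (ENSMUSG00000033208, chr10:76253853-76261159, plus strand), a calcium-binding protein, was at 57.05, 47.0, 48.2, 56.6 and 55.9 CPM in the controls and at 40.0, 43.0, 45.6, 35.6 and 44.4 CPM in nlsYAP5SA mice. All 5 mutants were below all controls, with 45.6 and 47.0 CPM the closest values, and the log2 fold change was -0.35 ± 0.08 (adjusted p 0.0163, edgeR).

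Sox9 (ENSMUSG00000000567, chr11:112782224-112787760, plus strand), a transcription factor of glial precursors that persists in astrocytes, was at 27.8, 24.5, 30.6, 31.9 and 28.8 CPM in the controls. In nlsYAP5SA replicates 1 to 5 it was at 39.5, 40.7, 33.8, 34.2 and 36.4 CPM. The mutants were all above the controls, and replicates 3 and 4 were again the closest to them. Its log2 fold change was 0.36 ± 0.08 (adjusted p 0.00997, edgeR), so the widely used markers Aldh1l1, S100b and Sox9 differed in whether and in which direction they were called.

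Among samples with Y-linked transcripts, nlsYAP5SA replicates 3 and 4 against the 5 controls, edgeR called 0 of 10 members, against 1.82% of the 16918 genes tested that were called higher and 0.154% lower. At an unadjusted p under 0.05 there were 3 members, Kcnj10, S100b and Sox9. Kcnj10 (log2 fold change -0.55 ± 0.14, adjusted p 0.109, edgeR) and S100b (-0.39 ± 0.12, adjusted p 0.220) fell at least as far as over all samples. The increases were smaller there: Slc1a3 0.20 ± 0.11, Gja1 0.18 ± 0.11, Glul 0.22 ± 0.15 and Sox9 0.24 ± 0.10 on the log2 scale, with edgeR's adjusted p between 0.435 and 0.714. With the Y-linked level as a covariate over all 10 samples, 0 of 10 members were called, against 2.92% of genes higher and 0.405% lower, with 4 members at an unadjusted p under 0.05. There Kcnj10 had a log2 fold change of -0.53 (adjusted p 0.0674, edgeR) and S100b of -0.38 (adjusted p 0.107). DESeq2 was not run on either of these. Over the 13 alternatives edgeR's or DESeq2's adjusted p ranged from 0.000109 to 0.109 for Kcnj10, from 0.00135 to 0.220 for S100b and from 0.00119 to 0.435 for Sox9. Whether sex, genotype or the smaller number of mice set the difference between these counts was not tested.

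Over all samples DESeq2 called 5 of 10 members higher, Gjb6 besides the 4, against 4.68% of the 29565 genes it tested, and 2 lower, against 2.92%. The calls of Slc1a3, Glul and Gja1 were also lost with the Ttr level as a covariate, where their log2 fold changes were 0.30, 0.35 and 0.33 (adjusted p 0.0587, 0.112 and 0.0618, edgeR). They were lost too without any of control replicate 2 or nlsYAP5SA replicates 1, 2 and 5 (adjusted p up to 0.0694, 0.0856 and 0.0644 over the omissions, edgeR), Glul also without control replicate 1 or nlsYAP5SA replicate 3, and S100b with all 13 samples in a single fit.

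**Figure D2:**
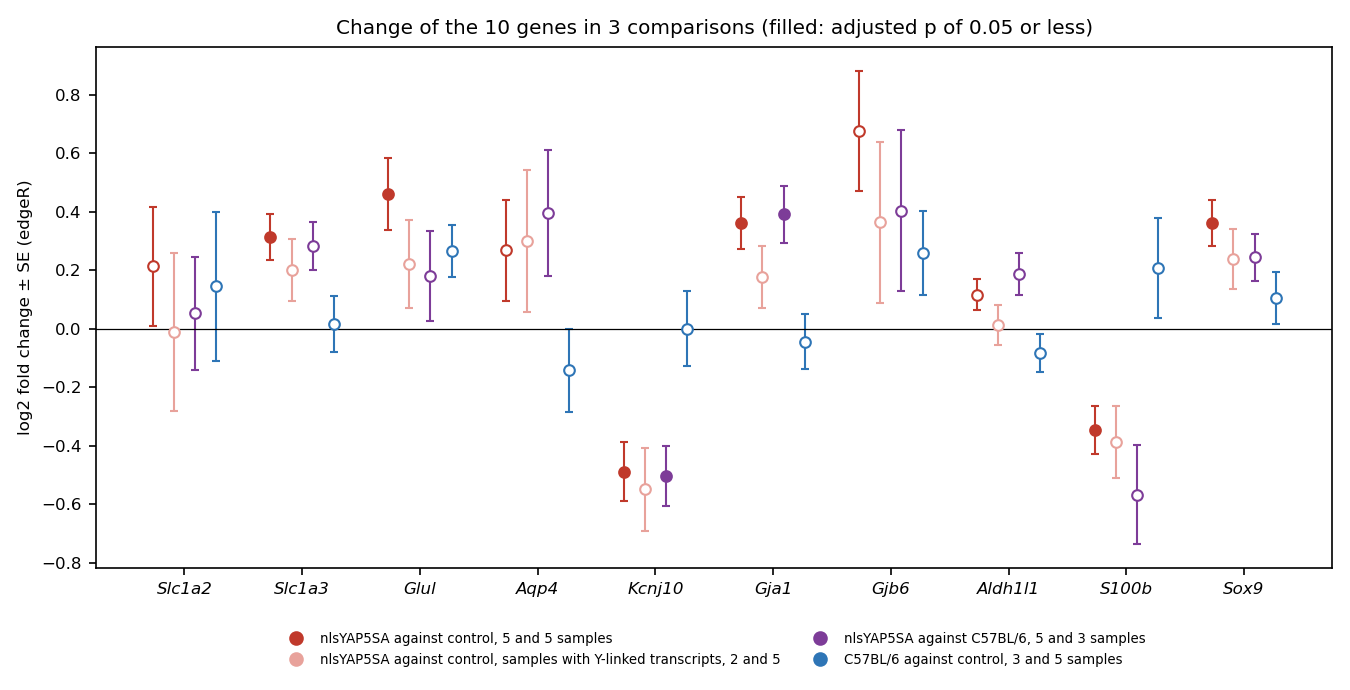
Log2 fold change of each of the 10 genes (y axis, edgeR, bars are SE; x axis, genes) for nlsYAP5SA against control over all samples (5 and 5) and over samples with Y-linked transcripts (2 and 5), nlsYAP5SA against C57BL/6 (5 and 3) and C57BL/6 against control (3 and 5); filled points passed an adjusted p of 0.05 or less. Kcnj10 lies at -0.49, -0.55, -0.50 and 0.00 in these, and Gja1 at 0.36, 0.18, 0.39 and -0.04.

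C57BL/6 mice were compared with the controls to see whether the transgene without Cre, or the litters, went with a difference of their own. No member was called: edgeR called 0 of 10, against 0.169% of the 16546 genes tested, and DESeq2 also called 0 of 10, against 0.203% of its 29068. At an unadjusted p under 0.05 each tool found 1 member, which in edgeR was Glul (log2 fold change 0.27 ± 0.09, unadjusted p 0.0147 and adjusted p 0.9996, edgeR). Its levels of 848, 961 and 844 CPM in the 3 C57BL/6 mice were above all 5 controls and under those of 4 nlsYAP5SA mice. Kcnj10, at 225, 236 and 279 CPM, had the same mean of 247 CPM as the controls. Gja1 (226, 232 and 240.1 CPM), Slc1a3 (591, 620.0 and 652 CPM) and Aqp4 (277, 242 and 333 CPM) fell within the control range. S100b was at 50.8, 84.1 and 48.7 CPM, and the high value in replicate 2 came from the sample with the highest myelin sum of all 13, 4872 CPM, and without Y-linked transcripts; the part of either in it was not tested. Gjb6 was also highest in that replicate among C57BL/6 mice (23.4, 32.4 and 21.9 CPM), as was Aldh1l1 (60.4, 66.6 and 61.0 CPM). Sox9 was nearly constant at 30.6, 30.7 and 31.3 CPM, and Slc1a2 spread from 2628 to 4006 CPM. Among samples with Y-linked transcripts, 2 against 5, edgeR again called 0 of 10, against 0.160% of the 16852 genes tested, with 0 at an unadjusted p under 0.05, and S100b stood at a log2 fold change of -0.09.

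The comparison of nlsYAP5SA with C57BL/6 mice sets the same 5 mutants against wild-type mice; it shares these mutants with the comparison above and is not independent of it. edgeR called 1 of 10 members higher, against 4.16% of the 16641 genes tested, and 1 of 10 lower, against 2.22% of them. Gja1 rose, with 269 to 346 CPM against 226 to 240.1 CPM and no overlap (log2 fold change 0.39 ± 0.10, adjusted p 0.0432, edgeR). Kcnj10 fell, with 157 to 196 CPM against 225 to 279 CPM and again no overlap (log2 fold change -0.50 ± 0.10, adjusted p 0.0189, edgeR). Of 10 myelin genes 4 were called lower in the same comparison (median log2 fold change -0.96), of 20 reactive genes 13 higher and of 8 microglial genes 5 higher, and their part in the result was not tested. For Slc1a3, Sox9, S100b and Aldh1l1 too the groups did not overlap, which makes 4 members above, against 8.71% of genes, and 2 below, against 6.47%. But edgeR called none of these, while DESeq2 called Slc1a3 higher and S100b lower. For the first 3 of them the log2 fold changes of 0.28 ± 0.08, 0.24 ± 0.08 and -0.57 ± 0.17 had adjusted p of 0.0720, 0.111 and 0.0831, in that order, in edgeR. Without C57BL/6 replicate 2 the log2 fold change of S100b was -0.25 (adjusted p 0.237, edgeR), and without C57BL/6 replicate 3 it was -0.71 and was called (adjusted p 0.0315). The log2 fold change of Aldh1l1 was 0.19 ± 0.07, and those of Slc1a2 and Glul were 0.05 ± 0.19 and 0.18 ± 0.15. Gjb6 and Aqp4 had log2 fold changes of 0.40 ± 0.28 and 0.40 ± 0.22, no smaller than that of Gja1 but with a wider spread, and none of these 5 was called (adjusted p between 0.176 and 0.907, edgeR). Leaving out single samples moved Gjb6 between 0.30 and 0.61 on the log2 scale, and it was called without nlsYAP5SA replicate 4 (adjusted p 0.0419, edgeR).

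The log2 ratio of Kcnj10 to Aqp4 was -0.30, -0.03 and -0.26 in the C57BL/6 mice, close to the controls. Against them the nlsYAP5SA samples were lower by a difference of -0.86 (two-sided exact permutation p 0.0179, the smallest that 56 divisions can give, adjusted 0.0804). Among samples with Y-linked transcripts, 2 against 2, edgeR called 0 of 10 members, against 0.285% of the 16495 genes tested, with 1 at an unadjusted p under 0.05 (Kcnj10, log2 fold change -0.58). The call of Kcnj10 was lost there. That of Gja1 was lost there and also with library size alone, with the Y-linked covariate, with GC and length offsets and without any of nlsYAP5SA replicates 1, 2 and 5 and C57BL/6 replicates 1 and 2, while DESeq2 called 2 members higher, against 3.19% of its 28946 genes, and 2 lower, against 2.11%.

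To see how far the members stood for the astrocyte genes around them, 82 other genes of astrocyte function in 6 lists were counted in nlsYAP5SA against control mice. edgeR called 16 of 82 higher, against 7.36% of the 16315 genes tested, and 11 lower, against 3.44% of them. The median log2 fold change of the 82 was 0.05, against 0.29 for the members. The counts of each of the 6 lists are to be read beside the same shares. Among samples with Y-linked transcripts 4 of 82 were called. Id3 and Id4 were higher, against 1.82% of the 16918 genes tested, and Slc7a10 and Btbd17 lower, against 0.154%. Beside Slc1a2, Slc1a3 and Glul, 8 other genes of glutamate, GABA and glycine handling held 0 called higher and 4 lower. These were the transporters Slc7a10 (log2 fold change -0.56 ± 0.06, adjusted p 9.12e-05, edgeR), Slc38a3 (-0.32 ± 0.08), Slc6a9 (-0.31 ± 0.08) and Slc6a11 (-0.23 ± 0.06). The last of these calls were not stable, with edgeR's adjusted p up to 0.0604 for Slc6a9 and 0.0778 for Slc6a11 when single samples were left out. Slc7a10, a serine and glycine transporter of astrocytes, was at 33.1, 27.5, 29.6, 30.6 and 31.2 CPM in the controls and 20.2, 21.5, 20.5, 19.8 and 21.2 CPM in nlsYAP5SA mice, with no dependence on Y-linked transcripts to be seen in its levels. So the glutamate transporter gene Slc1a3 was called higher and these 4 transporter genes lower.

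Beside Aqp4 and Kcnj10, 14 other genes of ion and water handling held 2 called higher, Hepacam (0.39 ± 0.10) and Mlc1 (0.19 ± 0.05), membrane proteins of astrocyte endfeet and junctions, and 0 lower. Beside Gja1 and Gjb6, 10 other genes of gap junctions and their partners held 2 called lower, Gjb1 (-0.88 ± 0.20), known from oligodendrocytes, among them, and 0 higher. Thus Gja1 and Gjb1 lay on opposite sides of the controls. Of 16 metabolic genes 5 were higher, the glycolytic enzyme Aldoc (0.51 ± 0.15), the glucose transporter Slc2a1 (0.67 ± 0.15) and the lipoprotein genes Apoe, Clu and Lcat (0.37 to 0.63), and 0 lower. Leaving out single samples, edgeR's adjusted p rose to as much as 0.103 for Aldoc, whose call held only without nlsYAP5SA replicate 4, 0.0670 for Apoe, 0.0545 for Hepacam and 0.0843 for Mlc1.

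Of 20 genes listed as receptor, surface, secreted and other proteins 4 were higher and 3 lower. The calls of Cbs (higher), Gpr37l1 and Tril (both lower) were lost in some omissions of single samples, with edgeR's adjusted p up to 0.0827, 0.0930 and 0.0985. Fam107a had the largest increase, from 61.4, 69.7, 97.8, 96.2 and 97.4 CPM in the controls to 270.3, 286, 271, 71.7 and 229 CPM in nlsYAP5SA mice (log2 fold change 1.42 ± 0.30, adjusted p 0.00804, edgeR). That call was lost with the Y-linked or Ttr covariate and in samples with Y-linked transcripts, with a log2 fold change as low as 0.62 and an adjusted p up to 0.339 over the alternatives. As with Glul, nlsYAP5SA replicate 4 lay among the controls, and it did so for Aldoc as well (287 CPM against 471 to 559 CPM in the other mutants). Btbd17 had the largest decrease (-0.70 ± 0.09). Of 14 astrocyte-lineage transcription factors, beside Sox9, 5 were higher and 2 lower: Id3 (0.75 ± 0.08) and Id4 (0.50 ± 0.05) led the increases, Nfia, Lhx2 and Rfx4 were between 0.24 and 0.44, and Etv4 (-0.34 ± 0.10) and Sox8 (-0.19 ± 0.05) were lower. The calls of Nfia, Lhx2, Etv4 and Sox8 were lost in some omissions of single samples, with edgeR's adjusted p up to 0.0696, 0.0848, 0.0909 and 0.0858. In C57BL/6 against control mice edgeR and DESeq2 each called 0 of the 82, against 0.169% and 0.203% of the genes they tested. At an unadjusted p under 0.05 there were 2 of the 82 in either.

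**Figure D3:**
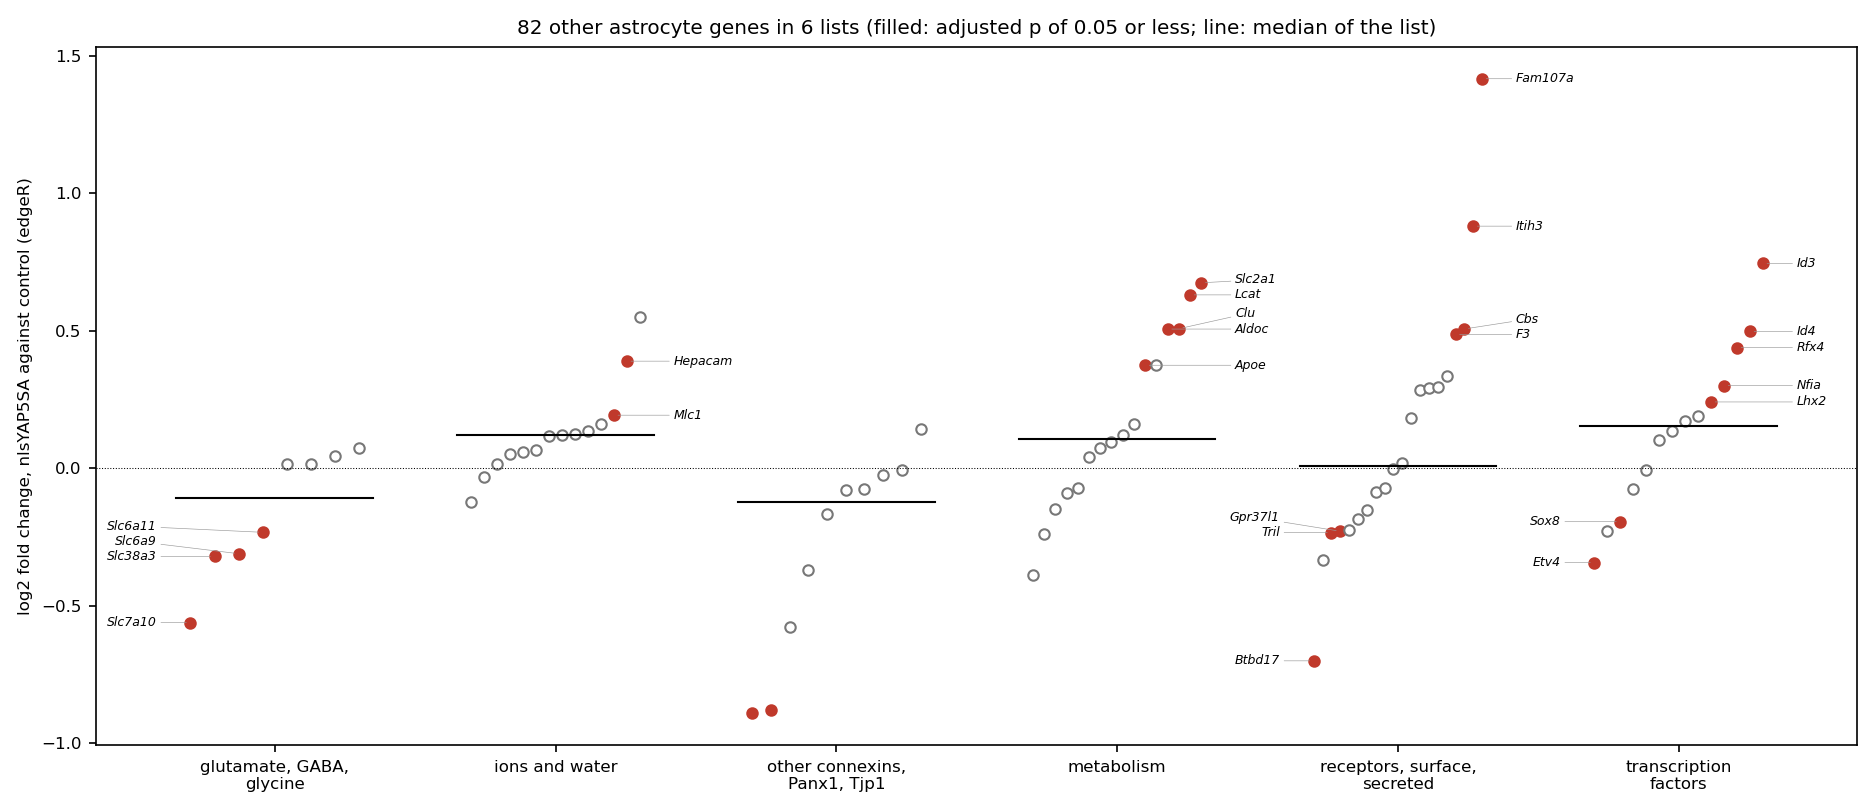
Log2 fold change in nlsYAP5SA against control mice (y axis, edgeR, 5 and 5 samples) of 82 astrocyte genes outside the 10 members, ordered by value within each of 6 lists (x axis); each point is a gene, filled where the adjusted p was 0.05 or less, with names for filled points outside the gap junction list, and lines are list medians. All 4 called genes of glutamate, GABA and glycine handling lie below 0, and all 5 called metabolic genes above it, up to Slc2a1 at 0.67.

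Genes of other cell states in the same hemispheres were counted in nlsYAP5SA against control mice. Their part in the values of the members was not tested. Over all genes tested, edgeR called 7.36% higher and 3.44% lower. Of 20 genes of reactive astrocytes 17 were called higher and 0 lower, with a median log2 fold change of 1.41. Their summed level was 356, 360.0, 330.0, 368 and 379.9 CPM in the controls and 1208, 1147, 1001, 1238 and 1304 CPM in nlsYAP5SA mice. Gfap, the most abundant of them, was at 170.2 to 189 CPM in the controls and 648 to 831 CPM in nlsYAP5SA mice, a separation far wider than that of any member, and nlsYAP5SA replicate 4 was as high as the others (806 CPM). Among samples with Y-linked transcripts 11 of these 20 were called higher, against 1.82% of genes, with Gfap at a log2 fold change of 2.002. None of the 20 was at 0 in all samples, and Lcn2 and Cxcl10 were at 0 in some.

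Of 10 myelin genes 1 was called lower, Ermn, against 3.44% of all genes tested, with a median log2 fold change of -0.54 over the list. That call was lost in some omissions of single samples (adjusted p up to 0.0967, edgeR). Of the 10 genes, 8 were at an unadjusted p under 0.05 (edgeR) and 0 had a log2 fold change above 0. Their sum was 2351, 2177, 3653, 3529 and 3401 CPM in control replicates 1 to 5 and 1805, 3009, 2368, 1398 and 2237 CPM in nlsYAP5SA replicates 1 to 5. The groups overlapped, Mbp was the most abundant (601 to 2057 CPM), and no myelin gene was at 0 in any sample. Control replicates 1 and 2, low in this sum, were also the lowest controls for Slc1a2, Slc1a3, Glul, Gja1, Gjb6, Kcnj10, Aqp4 and Sox9, though not for S100b. In the myelin sum nlsYAP5SA replicate 4 was the lowest of all 13. Of 8 precursor genes of oligodendrocytes 2 were lower (Gpr17, Olig1). The call of Gpr17 was lost without control replicate 4 or nlsYAP5SA replicate 1 (adjusted p up to 0.0525, edgeR).

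Of 8 microglial genes 7 were higher, and their sum was 335, 321, 363, 399.7 and 379 CPM in the controls and 608, 644, 509, 618 and 675 CPM in nlsYAP5SA mice. Of 10 genes of radial glia and progenitors 3 were higher (Pax6, Hopx, Prom1), of 10 ependymal genes 2 (Foxj1, Ak7) and of 10 choroid plexus genes 1 (Folr1), with 0 lower in each. Over all genes tested 7.36% were called higher and 3.44% lower, so the single choroid plexus call was near the share. The call of Ak7 was lost in some omissions of single samples (adjusted p up to 0.0669, edgeR). The choroid plexus sum, with Ttr the most abundant gene, was 242, 15.7, 15.3, 17.2 and 152 CPM in the controls and 292, 322, 166, 17.6 and 79.9 CPM in nlsYAP5SA mice, where replicate 4, low in Glul and Gjb6, was the lowest. Among 8 neuronal genes Nefl, and among 8 genes of cortical excitatory neurons Neurod6 (log2 fold change -0.98 ± 0.09), the locus that carries Cre in nlsYAP5SA mice only, were lower, and 0 were higher. Of 8 endothelial genes 2 were lower (Cldn5, Cdh5), and of 8 genes of pericytes and fibroblasts 4 were lower and 1 higher (Col1a2). The calls of Cdh5, Kcnj8 (a lower gene of pericytes and fibroblasts) and Col1a2 were lost in some omissions of single samples. There edgeR's adjusted p was up to 0.0839, 0.0880 and 0.0640. Of 5 erythroid genes 0 were called, with 0 at an unadjusted p under 0.05. Among samples with Y-linked transcripts edgeR called 4 of the 8 microglial genes, 1 gene of radial glia, 1 of pericytes and fibroblasts, 1 of excitatory neurons and 1 of the neuronal list. Over all genes tested there, 1.82% were called higher and 0.154% lower. In these samples edgeR called 0 myelin, endothelial, oligodendrocyte precursor, ependymal, choroid plexus or erythroid genes, with 8, 4, 3, 2, 1 and 0 of them, in that order, at an unadjusted p under 0.05.

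Samples of a group also differed from each other in the members. As a description with no test, the mean of their standardised log2 levels over the 13 samples was compared with the other genes among 10024, a number that includes members. The points share library and tissue piece. The genes most like it were Slc39a12 (Pearson r 0.967), Sparcl1 (0.948), Jade2 and Tns1 (0.929 each) and Tigd2 (0.927). With the mean of each group taken off they were Enpp6 (0.971), Slc39a12 (0.956), Man2b1 (0.949), Gjc3 (0.944) and Stxbp3 (0.937). Slc39a12, a zinc transporter gene known from astrocytes, was in both. Enpp6 (32.2 and 32.7 CPM) and Gjc3 (19.7 and 20.3 CPM) were lowest among the controls in replicates 1 and 2. Slc39a12 was lowest there too. These are the controls low in the myelin sum, and the part of myelinating cells in the likeness was not tested.

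Single members differed in their closest partners once group means were taken off. Slc1a3 was most like Nos1ap (r 0.953), and Gja1 like Slc1a3 itself (0.936). Glul was closest to Fam107a (0.975), and its r with Gjb6 was 0.960, the pair that was low in nlsYAP5SA replicate 4. Aqp4 was closest to Ednrb (0.994) and ran against Gjb6 (-0.52). Against the mean of all members, which holds the member itself, r was highest for Slc1a3 (0.946) and Gja1 (0.932) and lowest for Aqp4 (0.193) and S100b (0.309), so not all members varied together. Kcnj10 ran with Slc1a2 (0.865), Slc1a3 (0.768), Aqp4 (0.649), Sox9 (0.634) and Gja1 (0.598), and was near 0 with Gjb6 (0.0407) and S100b (-0.0664).

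Promoters of 8 of the 10 members were read from RefSeq (build GRCm38.p6; 250 bases before to 50 after the start) and searched on both strands for short motifs of TEAD factors, which bind YAP1, of AP-1 and of SOX factors. The letters were GGAATG, held by 14.7% of 32851 promoters, TGANTCA, held by 7.81%, and ACAAAG, held by 18.7%. Among the 8, each motif was held by a single member: TEAD by Slc1a2 (chr2:102706188-102706487, plus strand, at a start inside the annotated gene), which was not called, AP-1 by Gja1 (chr10:56377050-56377349, plus strand), called higher, and SOX by Kcnj10 (chr1:172340960-172341259, plus strand), called lower. A match describes letters only. These promoters are shown because they belong to members that behaved differently and share none of the motifs; capitals mark the match, in Slc1a2 on the opposite strand.
Slc1a2: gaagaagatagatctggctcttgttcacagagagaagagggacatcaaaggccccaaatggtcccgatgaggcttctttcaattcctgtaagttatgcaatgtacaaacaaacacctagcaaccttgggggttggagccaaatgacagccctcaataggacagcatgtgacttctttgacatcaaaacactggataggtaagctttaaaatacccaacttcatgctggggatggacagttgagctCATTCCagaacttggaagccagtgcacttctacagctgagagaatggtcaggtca
Gja1: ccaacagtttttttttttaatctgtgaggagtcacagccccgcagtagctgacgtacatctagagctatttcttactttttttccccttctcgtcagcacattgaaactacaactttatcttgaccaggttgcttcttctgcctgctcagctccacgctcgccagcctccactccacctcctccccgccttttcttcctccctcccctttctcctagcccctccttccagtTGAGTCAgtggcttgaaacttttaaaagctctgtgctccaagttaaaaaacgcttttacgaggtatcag
Kcnj10: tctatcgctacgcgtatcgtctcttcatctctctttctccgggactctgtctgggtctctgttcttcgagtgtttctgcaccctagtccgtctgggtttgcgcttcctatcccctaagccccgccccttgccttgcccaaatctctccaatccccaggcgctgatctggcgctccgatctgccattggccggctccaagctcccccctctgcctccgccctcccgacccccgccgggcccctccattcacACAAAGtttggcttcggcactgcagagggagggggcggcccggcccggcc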

How the data were processed

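Per the authors' methods, reads of KAPA mRNA libraries were trimmed with Cutadapt 1.5, aligned with STAR to GRCm38 with Ensembl genes, and counted with RSEM 1.3.0 (SAMtools 1.8), and the estimated counts per gene were deposited for 13 mice. The strand setting is not stated. The estimated counts, between 12.4% and 13.3% of them not whole, were rounded for edgeR 4.0.16 and DESeq2 1.42.0 (R 4.3.3, limma 3.58.1). Symbols for 48349 genes and positions for 48435 came from GENCODE M21.

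Each comparison was fitted over all genes that passed filterByExpr (minimum count 10, minimum total 15), with TMM factors, edgeR's quasi-likelihood test and Benjamini-Hochberg adjustment, calling genes at 0.05 or less. Tables were made in Python 3.11.15 with pandas 2.3.3 and numpy 2.4.6, and drawn with matplotlib 3.10.9. Ratios within samples were compared by exact two-sided permutation and adjusted over 9 tests. Depth per sample was between 20871566 and 25524349 estimated counts. The fits were tested on simulated data.

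The members and the 18 lists of 195 other genes were chosen with earlier results of these data known. The lists were glutamate, GABA and glycine handling, ion and water handling, connexins, metabolism, receptor, surface, secreted and other proteins, and transcription factors. Others were reactive astrocytes, radial glia, ependyma, choroid plexus, oligodendrocytes and their precursors, and excitatory and all neurons. The rest were microglia, endothelium, mural cells and fibroblasts, and red cells. Genes were named from all members, called genes of the lists, the most abundant gene of a list, and the closest genes by likeness; uncalled genes with the largest changes in lists of other cell types were left out, and some genes that this rule names are not reported here. The alternatives were other normalization, filters, DESeq2, a fit of all samples, covariates for Y-linked and Ttr levels, GC and length offsets, and leaving out each sample. The samples with Y-linked transcripts were taken as an alternative after the data were seen. Promoters came from RefSeq (GRCm38.p6).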

Additional observations from a re-analysis of the deposited data

Results flagged for a closer look

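A Dixon test for a value far from the other 4 of its group was applied to 26 groups of 5 samples, and chance alone flags about 1 in 20 groups. It picked out nlsYAP5SA replicate 4 in 3 of them. Glul was at 684 CPM there, the lowest of the 5, with 1033 CPM the nearest value (ratio 0.726). Gjb6 was at 16.0 CPM, also the lowest, with 36.7 CPM the nearest (ratio 0.803). The log2 ratio of Gjb6 to Gja1 was -4.07, the lowest, with -3.13 the nearest (ratio 0.732). These 3 flags are not separate, since they fall on the same mouse and the ratio holds Gjb6. Glul and Gjb6 also had an r of 0.960 with group means taken off.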

How the results depend on the processing

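Of the fold changes of single members under the alternatives, 558 kept direction and side of the threshold, 48 lost the threshold, 17 gained it and 27 turned direction, none of these 27 called. Of counts and ratios, 282 were labelled the same, 47 weaker, 23 stronger and 4 reversed. A count within a factor of 1.5 of its main value was labelled the same, so many of these counts did change. Of fold changes of other genes 1435 stayed, 260 were weaker and 1 stronger. The cause of a change was not tested. Groups of 2, 3 and 5 mice limit what a missing call means, as does sex, which is partly confounded with genotype. RNA of whole hemispheres does not separate cell number from RNA per cell, or astrocytes from tumour cells.

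For nlsYAP5SA against control, 4 members were called higher: 0 with the Y-linked covariate, 1 with the Ttr covariate, 0 in samples with Y-linked transcripts only, and 1 to 5 leaving out 1 sample. Of members called lower there were 2, against 1 in the fit of all 13 samples, 0 with the Y-linked covariate, 0 in samples with Y-linked transcripts only, and 2 to 2 leaving out 1 sample. All genes called were 1761, against 542 with the Y-linked covariate, 334 in samples with Y-linked transcripts only, 1210 to 1891 leaving out 1 sample, and 3212 with the ordinary GC and length offset (1208 higher and 2004 lower, against 1200 and 561). Other astrocyte genes called were 27, against 8 with the Y-linked covariate, 4 in samples with Y-linked transcripts only and 15 to 30 leaving out 1 sample.

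For C57BL/6 against control, 0 members were called under any alternative. All genes called were 28, against 16 with at least 10 counts in every sample, 59 with the DESeq2 Wald test, 53 with its prior, 44 in the fit of all 13 samples, and 19 to 27 leaving out 1 sample. For nlsYAP5SA against C57BL/6, members called higher were 1, against 0 with library size alone, 2 with either DESeq2 fit, 0 with the Y-linked covariate, 0 with either GC and length offset, 0 in samples with Y-linked transcripts only, and 0 to 2 leaving out 1 sample. Members called lower were 1, against 2 with either DESeq2 fit, the fit of all 13 samples, the Y-linked covariate and either GC and length offset, 0 in samples with Y-linked transcripts only, and 1 to 2 leaving out 1 sample. All genes called were 1061, against 1962 with the ordinary offset (817 higher and 1145 lower, against 692 and 369), 47 in samples with Y-linked transcripts only and 401 to 1757 leaving out 1 sample. Other astrocyte genes called were 11, against 19 with either DESeq2 fit, 17 in the fit of all 13 samples, 19 with the ordinary offset, 0 in samples with Y-linked transcripts only and 5 to 15 leaving out 1 sample.

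Leaving out 1 sample moved the log2 ratio of Slc1a2 to Slc1a3 from -0.175 to 0.0360 for nlsYAP5SA against control and from -0.00939 to 0.262 for C57BL/6 against control. That of Gjb6 to Gja1 moved from 0.14 to 0.46 and, against C57BL/6, from -0.17 to 0.18, and that of Kcnj10 to Aqp4 from -0.82 to -0.59 for nlsYAP5SA against control.

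These log2 fold changes turned sign, none of them called. For nlsYAP5SA against control, Slc1a2 was -0.0115 in samples with Y-linked transcripts only. For C57BL/6 against control, Slc1a3 was -0.00799 with library size alone and between -0.0388 and 0.0481 leaving out 1 sample, and Slc1a2 was between -0.102 and 0.289. Kcnj10 was -0.00115 with DESeq2 size factors, -0.0210 with library size alone, -0.00964 with no filter, -0.00435 with the DESeq2 Wald test, -0.00270 with its prior, -0.0123 with the Ttr covariate, -0.000758 with the robust and -0.00220 with the ordinary offset, and between -0.114 and 0.0601 leaving out 1 sample. S100b was -0.0742 with the Y-linked covariate, -0.0899 in samples with Y-linked transcripts only and between -0.0899 and 0.331 leaving out 1 sample. For nlsYAP5SA against C57BL/6, Slc1a2 was -0.0115 with the robust and -0.0398 with the ordinary offset, -0.267 in samples with Y-linked transcripts only and between -0.0600 and 0.286 leaving out 1 sample.

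The labels give the groups the same replicate numbers. With the number as a replicate block, members called higher for nlsYAP5SA against control were 0 and lower 1, and 15 other astrocyte genes were called, with 1239 genes called in all (936 higher and 303 lower). For C57BL/6 against control 15 genes were called in all, and Gja1 turned to a log2 fold change of 0.0418. For nlsYAP5SA against C57BL/6, 0 members were higher, 0 lower, 47 genes were called in all and 1 other astrocyte gene. Samples of the same number had a correlation between -0.31 and 0.49, and not every sample correlated best with its own number.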
